A study of Homo sapiens with 6 samples.

Results

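The subunits of the mitochondrial respiratory chain and of the ATP synthase were followed at the RNA level in human mammary epithelial cells that carried extra pre-miR-203a. Members were chosen by symbol alone: protein-coding features named as NDUFA, NDUFB, NDUFC, NDUFS or NDUFV subunits with a number, SDHA to SDHD, UQCR, COX4 to COX8, ATP5F, ATP5M or ATP5P, or with the prefix MT-. The rule found 92 of the 18999 features in the deposited table. Of these, 79 are encoded in the nucleus and 13 by mitochondrial DNA. By complex, the nuclear members comprised 36 of complex I, 4 of complex II, 9 of complex III, 13 of complex IV and 17 of complex V, with NDUFA4 counted in complex IV. The mitochondrial members comprised 7 of complex I, 1 of complex III, 3 of complex IV and 2 of complex V.

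MCF10A is an immortalised, non-tumorigenic human breast epithelial line. Both groups were infected with a pMSCVpuro retrovirus and kept under puromycin, in the same medium with horse serum, epidermal growth factor, insulin, cholera toxin and hydrocortisone. The control group received pMSCVpuro with no insert and the other group pMSCVpuro-pre-miR-203a, with 3 libraries each, called empty vector and pre-miR-203a libraries 1, 2 and 3 here. The series text speaks of total RNA, whereas the extraction text of the same libraries describes pulling down AGO2, the protein that holds microRNAs, so the kind of RNA sequenced could not be settled. The labels do not say whether the transduced cells were pools or clones, or whether the libraries of a group came from separate cultures, so p-values reflect only how far these libraries vary, possibly for technical reasons.

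The inner mitochondrial membrane carries the chain. Complex I takes electrons from NADH and complex II takes them from succinate. Complex III passes them from ubiquinol to cytochrome c, and complex IV passes them to oxygen. Complexes I, III and IV pump protons, and complex V, the ATP synthase, lets protons flow back through a ring of c subunits and makes ATP. The chain is built from 2 genomes: mitochondrial DNA encodes core membrane subunits, and all other subunits are made in the cytosol and imported. A microRNA pairs through its seed with sites in the 3′ untranslated region (3′ UTR) of mRNAs, which lowers their translation or stability.

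Whether the kind of seed match bears on a change was not tested. The sequences below hold matches of the 2 subunits called lower over 6 libraries and 3 of the 5 uncalled members with longer matches. The first is the mature microRNA from RefSeq (GRCh38.p14, chr14:104117469-104117490, + strand), with its seed, bases 2 to 8, in capitals. The others are stretches of the longest annotated 3′ UTR in GENCODE 29 on GRCh38, written as the mRNA strand in DNA letters, with the match in capitals.
hsa-miR-203a-3p: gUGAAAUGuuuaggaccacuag
ATP5MC3, chr2:175178153-175178179, − strand: tttccaaagtCATTTCAttaaagatga
ATP5PF, chr21:25724546-25724572, − strand: aataaacatgCATTTCAtaactgtcaa
ATP5MG, chr11:118409506-118409533, + strand: gttagaataaCATTTCAActgttttctt
UQCR11, chr19:1597355-1597382, − strand: aattggtagaCATTTCAAactgtcacat
NDUFB2, chr7:140721683-140721710, + strand: cccagtataaCATTTCAAggatgtgctg
The match in ATP5MC3 and ATP5PF is CATTTCA, the complement of the whole seed, called a 7mer-m8. The other 3 add an A opposite the first base of the microRNA, CATTTCAA, which makes an 8mer.

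Reads over the listed features numbered from 7632063 in pre-miR-203a library 3 to 35084590 in empty vector library 2. The hairpin MIR203A had between 8 and 22 reads per library with the empty vector and between 8476 and 34827 with the insert, so every library fitted its label. Its level was uneven with the insert, at 19005.5, 3698.9 and 24945 FPKM in pre-miR-203a libraries 1, 2 and 3. The second principal component, with 26.6% of the variance, separated both libraries numbered 3 from the remaining 4. Results are therefore given with and without these 2 libraries, a choice made after seeing the data. Of the 10 mammary epithelial markers all were tested, with summed levels of 1095 to 1384 FPKM in the empty vector group and 1031 to 1439 FPKM in the pre-miR-203a group. CDH1 (E-cadherin, log2 fold change 0.85) and KRT8 (a luminal keratin, 0.93) rose and KRT5 (a basal keratin, −0.68) fell. With the replicate block the basal markers TP63 (−0.81, adjusted p = 0.0259) and KRT17 (0.82, adjusted p = 0.0173) were called as well. The call of KRT5 ended without library 1 or 2 of either group (adjusted p = 0.0543 to 0.0958). Of 18 markers of other cell types, 12 were listed and 2 tested. Their summed level was 4.86 to 7.47 FPKM and 6.29 to 10.4 FPKM, with COL1A1 higher (0.63) and the immune marker ITGAM at most 0.202 FPKM. The call of COL1A1 ended without library 1 of either group (adjusted p = 0.0525 and 0.0633). The part of these markers in the results was not tested. Values are in FPKM, reads scaled to feature length and to the reads of the library, and a fold change is the difference of group means of log2(FPKM + 1), pre-miR-203a over empty vector.

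Nuclear-encoded subunit mRNAs moved little as a group, and the 2 that were called both belong to complex V and both fell. These were ATP5MC3, a gene for the c subunit of the proton-driven ring, and ATP5PF, which encodes coupling factor 6 of the stalk that holds the catalytic head still. Of the 75 nuclear members that reached 1 FPKM in 3 or more libraries, 0 were higher and 2 lower at an adjusted p under 0.05 (limma). Over all 11271 tested features 743 were higher, which is 6.59%, and 1035 were lower, which is 9.18%. The 2 lower members are 2.67% of the 75 and 11.8% of the 17 complex V members tested. Whether calls gather in complex V was not tested. At an unadjusted p under 0.05, 0 of the 75 nuclear members were higher and 6 lower, beside 1463 higher and 1929 lower of all 11271 tested features. Groups did not overlap for 0 nuclear members in the higher direction and for 8 in the lower, against 16.6% and 20.9% of all tested features. In a share of a library, less RNA per cell and fewer cells with the RNA cannot be told apart.

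The median log2 fold change of the nuclear members was −0.012, beside −0.012 for all tested features. Median-of-ratios scaling moved these medians to 0.022 and 0.017, so their sign depends on the scaling. Their spread was narrower: the median size of the change, whatever its sign, was 0.083 against 0.221 over all tested features. The 95% interval lay within 0.5 of 0 on the log2 scale for 46 of the 75 and within 1 for 73. Changes smaller than that were thus compatible with most intervals and cannot be read as absent.

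ATP5MC3 (ENSG00000154518.9; chromosome 2, 175176258 to 175184607, − strand, GRCh38) was at 60.1, 63.2 and 58.2 FPKM in the controls and at 24.0, 27.0 and 29.5 FPKM with pre-miR-203a. The lowest control value was far above the highest pre-miR-203a value, and all 3 numbered pairs moved down. The mean was 60.5 ± 2.51 (SD, n = 3) against 26.8 ± 2.74 (SD, n = 3) FPKM, 2.26-fold lower. Its log2 fold change was −1.15 ± 0.11 (SE), with an adjusted p of 0.00242 (limma). It rests on 1524 to 15033 reads per library. The call held without any 1 library, with adjusted p from 0.00577 to 0.0185, and without both libraries numbered 3 (−1.24, adjusted p = 0.00451).

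ATP5PF (ENSG00000154723.12; chromosome 21, 25716503 to 25735673, − strand) was at 62.8, 63.1 and 57.7 FPKM with the empty vector and at 28.8, 33.2 and 45.7 FPKM with pre-miR-203a. The groups did not overlap, and pre-miR-203a library 3 was the one nearest to the controls. The mean was 61.2 ± 3.05 (SD, n = 3) against 35.9 ± 8.77 (SD, n = 3) FPKM, 1.71-fold lower. Its log2 fold change was −0.78 ± 0.17 (SE), with an adjusted p of 0.0225 (limma). The call ended on leaving out control library 1, 2 or 3, or library 1 or 2 of the pre-miR-203a group (adjusted p = 0.0865, 0.0781, 0.0568, 0.0699 and 0.0634), and it held without pre-miR-203a library 3 (−0.96, adjusted p = 0.00703). Without both libraries numbered 3 the log2 fold change was −1.005, with an adjusted p of 0.00535. The gene overlaps 1104 bases of GABPA and 1060 bases of JAM2 on the opposite strand. The strand setting of the counting could not be learned from the labels, so reads from these overlaps cannot be assigned. GABPA, a transcription factor for nuclear respiratory genes, was at 2.73 to 4.91 FPKM in the 6 libraries, with a log2 fold change of −0.16 ± 0.18 (SE).

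**Figure D1:**
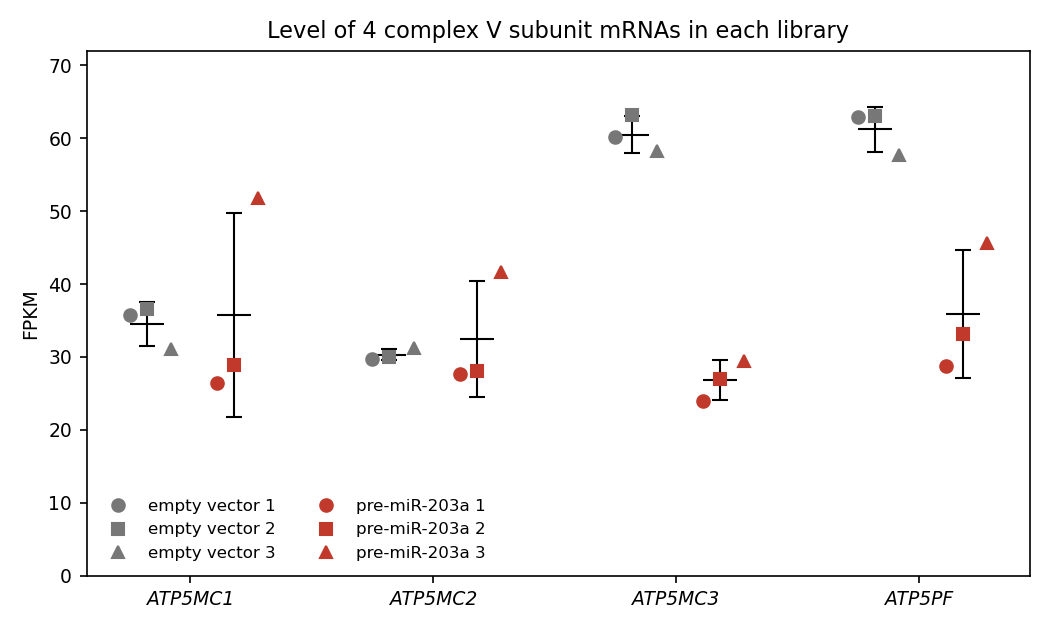
FPKM of ATP5MC1, ATP5MC2, ATP5MC3 and ATP5PF in each library; grey symbols are empty vector and red symbols pre-miR-203a libraries, symbol shapes give the library number, and black bars give the mean and SD of 3 libraries. ATP5MC3 and ATP5PF do not overlap between the groups, whereas ATP5MC1 and ATP5MC2 do, with pre-miR-203a library 3 the highest of all 6 libraries in both.

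The fall of ATP5MC3 was set against its paralogs, because 3 genes encode the same mature c subunit with different import peptides. ATP5MC1 was at 35.8, 36.6 and 31.1 FPKM with the empty vector and at 26.5, 28.9 and 51.8 FPKM with pre-miR-203a, with overlapping groups. The fitted change was −0.012 ± 0.24 (SE) on the log2 scale, with an adjusted p of 0.985. Without both libraries numbered 3, ATP5MC1 was called lower (−0.38, adjusted p = 0.0277), where 17.3% of all tested features were. ATP5MC2 was at 29.7, 30.0 and 31.2 FPKM and at 27.7, 28.0 and 41.7 FPKM, with a log2 fold change of 0.07 ± 0.17 (SE, adjusted p = 0.833). Without both libraries numbered 3 its log2 fold change was −0.098 (adjusted p = 0.367). Neither paralog has a seed match of 6 or more bases in its annotated 3′ UTR of 102 or 148 bases.

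ATP5MC3 supplied 47.8%, 48.7% and 48.3% of the summed c subunit FPKM in the controls and 30.7%, 32.2% and 24.0% with pre-miR-203a. Its share was therefore lower in every pre-miR-203a library than in any control. The log2 difference between ATP5MC3 and ATP5MC1 was lower by 1.14 with pre-miR-203a and that between ATP5MC3 and ATP5MC2 by 1.22. With 3 libraries a group, the 2-sided exact permutation test gave p = 0.1 for each of these 2 differences, the smallest it can give, and 0.1 after Benjamini-Hochberg adjustment. ATP5MC3 was singled out by its own call in the same libraries, so these differences are a description. The summed c subunit level was 126, 130 and 120 FPKM against 78.1, 83.9 and 123 FPKM, so that the groups overlapped through pre-miR-203a library 3.

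The remaining 15 nuclear complex V members were not called. ATP5MD, a small subunit of the membrane part, was next in size, at 103, 91.3 and 79.1 FPKM against 61.5, 56.9 and 78.0 FPKM. Its groups did not overlap but nearly met in the libraries numbered 3, and the fitted change was −0.48 ± 0.16 (SE, adjusted p = 0.088). Without pre-miR-203a library 3 it was called (−0.61, adjusted p = 0.0275). ATP5F1B, the catalytic beta subunit, had the highest level per length of all nuclear members, 569 to 677 FPKM against 522 to 688 FPKM, and a log2 fold change of −0.07 ± 0.16 (SE). ATP5F1A, the alpha subunit, had groups that did not overlap, 60.9 to 68.8 against 56.2 to 60.7 FPKM, yet it changed by only −0.12 ± 0.10 (SE, adjusted p = 0.508). Log2 fold changes over 6 libraries were near 0 for the epsilon subunit ATP5F1E (0.0021) and the peripheral stalk subunits ATP5PB (−0.043), ATP5PD (0.075) and ATP5PO (−0.082). The same held for the membrane subunits ATP5ME (−0.013), ATP5MF (0.13) and ATP5MPL (0.031). Without both libraries numbered 3, these genes ran from −0.245 for ATP5MPL to −0.017 for ATP5F1E, and none was called. Over the 17 complex V members the median log2 fold change in 6 libraries was −0.043.

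Matches to the seed of miR-203a-3p were read in each gene's longest 3′ UTR in the annotation. Letters searched on the mRNA strand were CATTTCAA (8mer), CATTTCA (7mer-m8), ATTTCAA (7mer-A1) and ATTTCA (6mer), each gene counted under its longest match. A 7mer or 8mer was found in 21 of the 79 nuclear members, 26.6%, against 3338 of 10187 tested features with a 3′ UTR, 32.8%. The members' 3′ UTRs were shorter, with a median of 451 against 1404 bases. Of the 9 members with a 7mer-m8, 22.2% were called lower, against 15% of all tested features whose best match was a 7mer-m8. Of the 5 members with an 8mer, 0% were called lower over 6 libraries, against 18.0% of all. With 9 and 5 members, these shares rest on 2 and 0 genes.

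In ATP5MC3 the match printed above begins at base 119 of a 3′ UTR of 2030 bases, and in ATP5PF at base 78 of 160. The other 7mer-m8 members were NDUFA9, NDUFB4, NDUFA10, NDUFA11, NDUFB9, UQCRB and COX7A2L, none of them called. NDUFA9 and NDUFB4 had the next lowest fold changes among them, −0.45 and −0.33, while NDUFA10 (0.10) and COX7A2L (0.14) lay above 0. The 8mer members had log2 fold changes of −0.0027 for NDUFS1, 0.014 for NDUFB2, 0.0021 for ATP5F1E, 0.13 for UQCR11 and −0.045 for ATP5MG. Without both libraries numbered 3, UQCR11 was called lower (−0.41, adjusted p = 0.0272), where 17.3% of all tested features were. In that fit NDUFB2 (−0.32, adjusted p = 0.0518), ATP5F1E (−0.017), NDUFS1 (0.021) and ATP5MG (0.17) were not called. ATP5MG, a subunit of the membrane part, was at 40.3, 38.5 and 50.3 FPKM against 45.2, 43.7 and 35.8 FPKM, so the groups overlapped. A match in these letters is a description and not a shown site, and the longest 3′ UTR need not be the one these cells use.

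Complex I had no called member among the 34 nuclear subunits tested, with a median log2 fold change of −0.012. NDUFA9, which stabilises the join between the matrix arm and the membrane arm, was at 2.76, 2.71 and 2.21 FPKM with the empty vector and at 1.36, 1.92 and 1.53 FPKM with pre-miR-203a. The groups did not overlap, with a fold change of −0.45 ± 0.13 (SE, adjusted p = 0.0599). It was called lower from the recovered reads with limma-voom (−0.66, adjusted p = 0.0419), where 9.75% of all features were lower. In the authors' deposited table its change was −0.65 with an adjusted p of 0.0103. That table, where 9.45% of 14209 features with an adjusted p were lower, also called ATP5MC3 (−1.15, adjusted p = 1.13e-12) and ATP5PF (−0.75, adjusted p = 0.00195), and no other nuclear member in either direction.

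NDUFA6, an accessory subunit of the matrix arm, was at 53.3, 54.2 and 53.9 FPKM against 42.6, 42.5 and 44.7 FPKM. Its values were tight within each group and lower by about the same amount in all 3 numbered pairs, with a log2 fold change of −0.31 ± 0.094 (SE, adjusted p = 0.0674). NDUFB4, an accessory subunit of the membrane arm, was at 41.5, 41.7 and 42.7 FPKM against 31.1, 31.2 and 37.9 FPKM (−0.33 ± 0.11 SE, adjusted p = 0.101). Without pre-miR-203a library 3, NDUFA6 (adjusted p = 0.0277) and NDUFB4 (adjusted p = 0.0167) were called, as was NDUFA8 (adjusted p = 0.035). The most abundant nuclear complex I mRNA per length was NDUFS5, at 297 to 354 FPKM against 340 to 372 FPKM, with a log2 fold change of 0.16 ± 0.13 (SE). Over 6 libraries, core subunits that carry iron-sulfur clusters or flavin lay near 0, with −0.0027 for NDUFS1, 0.0082 for NDUFS7, −0.040 for NDUFS8 and −0.023 for NDUFV1. The SE of NDUFS8 was 0.26. Without both libraries numbered 3, NDUFS8 was at −0.44 (adjusted p = 0.0735), NDUFS7 at −0.27, NDUFV1 at −0.18 and NDUFS1 at 0.021, none of them called.

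Complex II had none called among 4 tested, with a median of −0.04. SDHD, a membrane anchor, was at 11.9, 11.8 and 10.9 FPKM against 9.29, 10.1 and 10.4 FPKM. Its groups did not overlap, but the log2 fold change was −0.20 ± 0.10 (SE, adjusted p = 0.247). SDHB, the iron-sulfur subunit, had the highest level per length in the complex, 65.6 to 74.4 against 56.7 to 73.2 FPKM, and a log2 fold change of −0.13 ± 0.13 (SE). SDHA, the flavoprotein that oxidises succinate, was listed at only 2.49 to 3.03 FPKM in the 6 libraries. Reads of SDHA can be split with its listed pseudogenes SDHAP1 and SDHAP3, so its level is uncertain.

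Complex III had none called among 8 nuclear members tested, with a median of 0.042. UQCRFS1, the Rieske iron-sulfur protein, changed by −0.16 ± 0.13 (SE) and the core protein UQCRC2 by −0.10 ± 0.099 (SE). UQCR10, the most abundant per length, was at 104 to 113 FPKM against 102 to 144 FPKM, with overlapping groups. UQCR11 changed sign with the libraries used. It was at 26.2, 25.4 and 14.9 FPKM against 20.3, 18.1 and 35.7 FPKM, with a log2 fold change of 0.13 over 6 libraries and of −0.41 (adjusted p = 0.0272) without both libraries numbered 3. Without pre-miR-203a library 3 alone, the median of complex III was −0.105.

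Complex IV had none called among 12 nuclear members tested, with a median of 0.04. COX8A, the most abundant per length, was at 255, 288 and 237 FPKM against 212, 208 and 372 FPKM. COX6B1, which joins the monomers of the complex IV dimer, was at 177, 190 and 177 FPKM against 179, 176 and 314 FPKM, with a log2 fold change of 0.24 ± 0.23 (SE). COX5B was at 67.5, 75.8 and 53.1 FPKM against 59.7, 51.7 and 106 FPKM. In all 3 genes pre-miR-203a library 3 was the highest of the 6 libraries, and the groups overlapped. Without both libraries numbered 3, COX8A (−0.37, adjusted p = 0.0413) and COX7A2 (−0.34, adjusted p = 0.0366) were called lower, where 17.3% of all tested features were. COX4I1, the ubiquitous form of subunit 4, and COX7A2L, which joins complexes III and IV, changed by 0.083 and 0.14, and neither was called. COX4I2, COX6A2, COX7A1, COX8C and NDUFA4L2, tissue or hypoxia forms, are not among the members in the files used here.

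**Figure D2:**
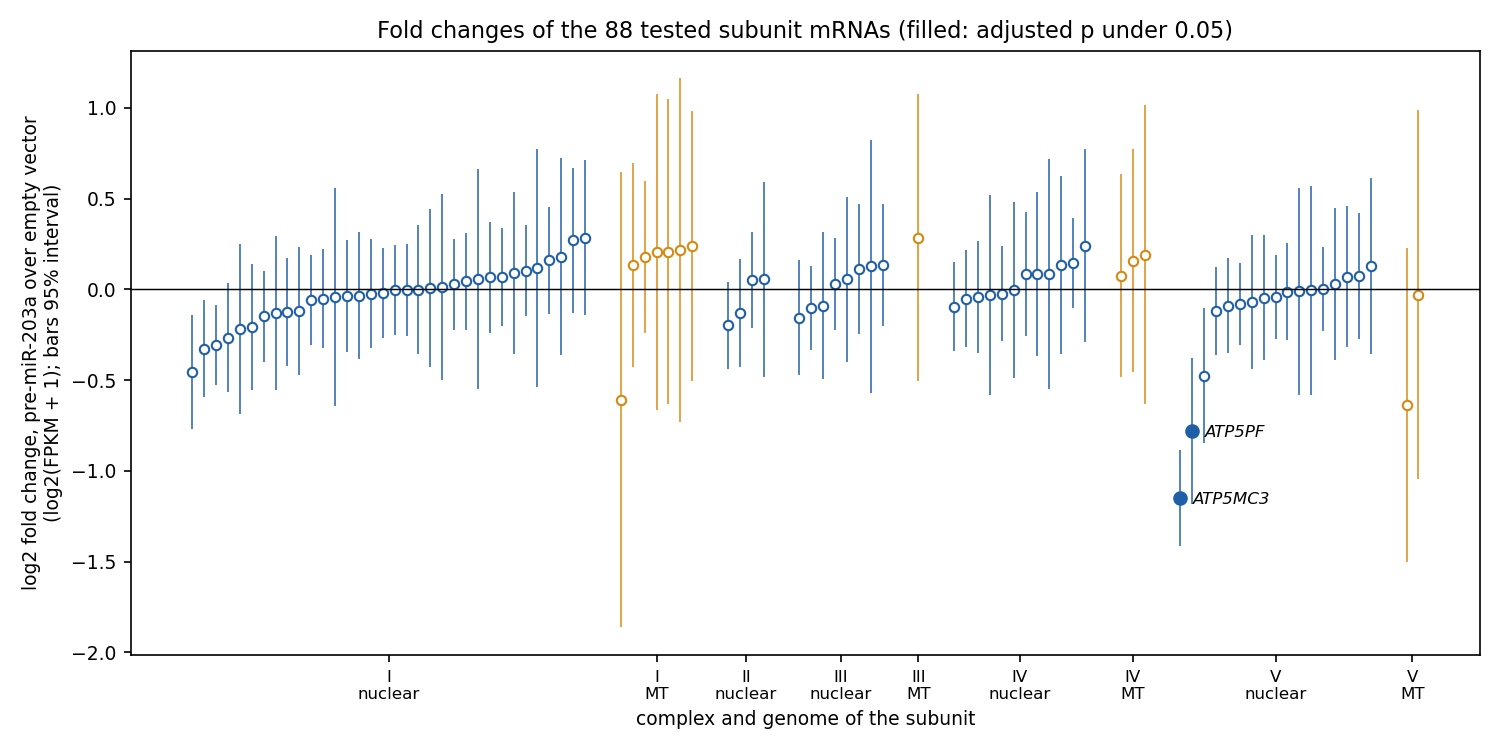
Log2 fold change of log2(FPKM + 1), pre-miR-203a over empty vector, of the 88 tested members, one point each, ordered within complex and genome; bars are 95% intervals, blue is nuclear and orange is mitochondrially encoded. The filled points, ATP5MC3 at −1.15 and ATP5PF at −0.78, are the 2 called, and the orange bars are wider than most blue ones.

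Of the 4 nuclear members that were too low to test, NDUFV2, a core flavoprotein subunit of complex I, was at 0.128 to 0.531 FPKM and 6 to 48 reads per library. NDUFA7 had 3 to 20 reads, COX6B2, a testis form, 4 to 23 reads, and UQCRHL, an intronless copy of UQCRH, 9 to 44 reads. NDUFA7 overlaps the listed gene RPS28 and NDUFV2 the listed gene NDUFV2-AS1. Of the 92 members, 38 overlap a listed feature and 56 an annotated gene, so reads that fall in such overlaps may not have been counted for either gene. A further 11 listed features are pseudogenes of nuclear members, with mean levels from 0.0891 FPKM to 7.64 FPKM for ATP5F1EP2. How reads that fit several copies were treated was not stated in the labels.

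The 13 mitochondrially encoded mRNAs did not differ between the groups beyond the spread of the libraries. Of the 13, 0 were called in either direction (limma), 0 had an unadjusted p under 0.05, and neither limma-voom nor the authors' deposited table called any. Their median log2 fold change was 0.178, with 10 above 0 and 3 below, and it ranged from −0.016 without control library 2 to 0.397 without control library 3. Intervals were wide: 0 of 13 lay within 0.5 of 0 and 5 within 1, so the intervals of the other 8 reached past a 2-fold change. All 13 groups overlapped.

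Levels per length were far above those of nuclear members, with a median over genes of 3672 FPKM against 37.7 FPKM. MT-CO2, a catalytic subunit of complex IV that holds copper, was highest of the 13, at 7601, 7030 and 15279 FPKM against 11963, 12340 and 8249 FPKM. MT-ND4, a proton-pumping subunit of complex I, was at 5497, 5415 and 14050 FPKM against 8454, 10933 and 7111 FPKM. MT-CYB, the cytochrome b of complex III, was at 2712, 2885 and 6201 FPKM against 4302, 5234 and 3901 FPKM. In each of these 3 genes empty vector library 3 was the highest of all 6 and the other 2 controls the lowest. MT-ND6, the only member on the light strand, differed: it was at 339, 276 and 331 FPKM against 329, 341 and 77.4 FPKM, so that pre-miR-203a library 3 stood far below the other 5. MT-ATP8, a small ATP synthase subunit whose gene overlaps MT-ATP6, was at 2327, 1751 and 2055 FPKM against 1800, 1771 and 701 FPKM, with the same library lowest.

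**Figure D3:**
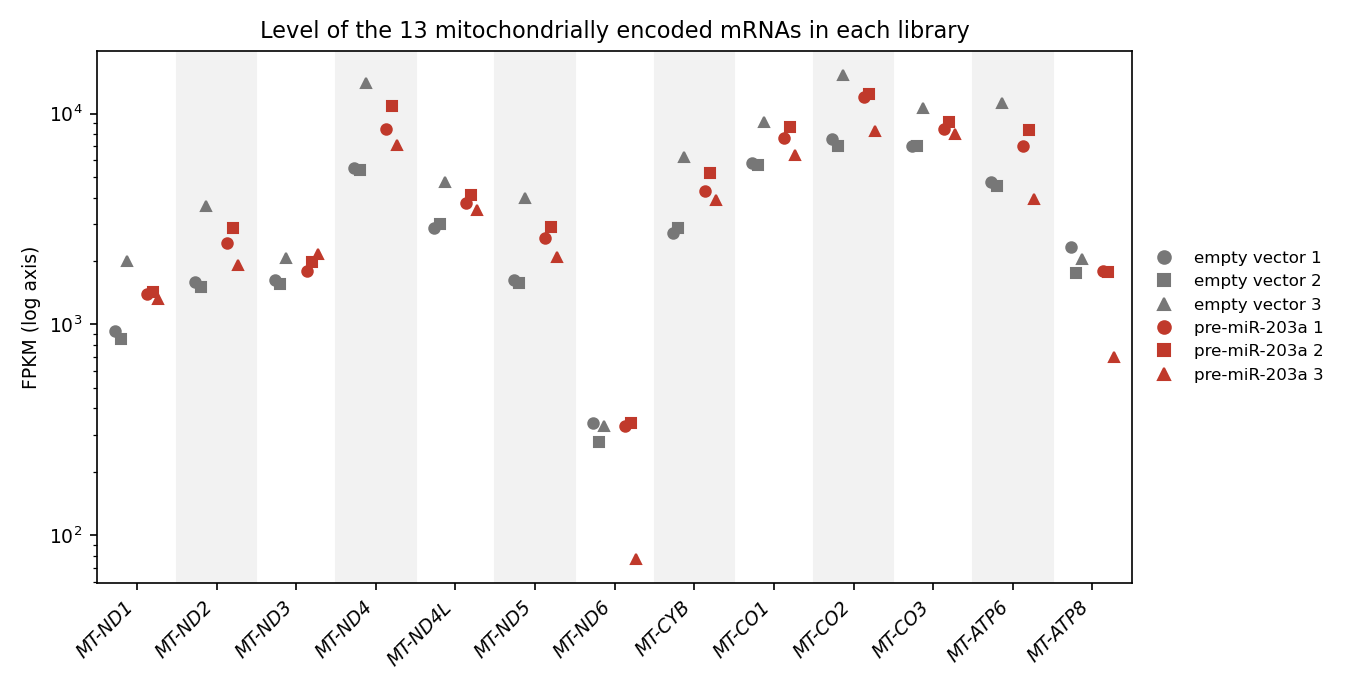
FPKM, on a log axis, of the 13 mitochondrially encoded mRNAs in each library, with grey for empty vector, red for pre-miR-203a and the symbol shape for the library number. Empty vector library 3 is above the other 2 controls in 11 of the 13 genes, and pre-miR-203a library 3 is lowest of all 6 for MT-ND6 (77.4 FPKM), MT-ATP8 (701 FPKM) and MT-ATP6.

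Ratios taken within each replicate number differed in direction. In libraries 1, 11 of 13 mitochondrial members were higher with pre-miR-203a, with a median log2 ratio of 0.553. In libraries 2, 13 of 13 were higher, with a median of 0.728. In libraries 3, 1 of 13 was higher, with a median of −0.889. Nuclear members went the other way in each: 22 of 75 were higher in libraries 1 (median −0.116), 11 in libraries 2 (−0.198) and 53 in libraries 3 (0.193). Of all 11271 tested features, 5215 were higher in libraries 1 (median −0.035), 4918 in libraries 2 (−0.048) and 5914 in libraries 3 (0.033). Medians of all features thus had the same signs as those of the nuclear members, at a smaller size.

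**Figure D4:**
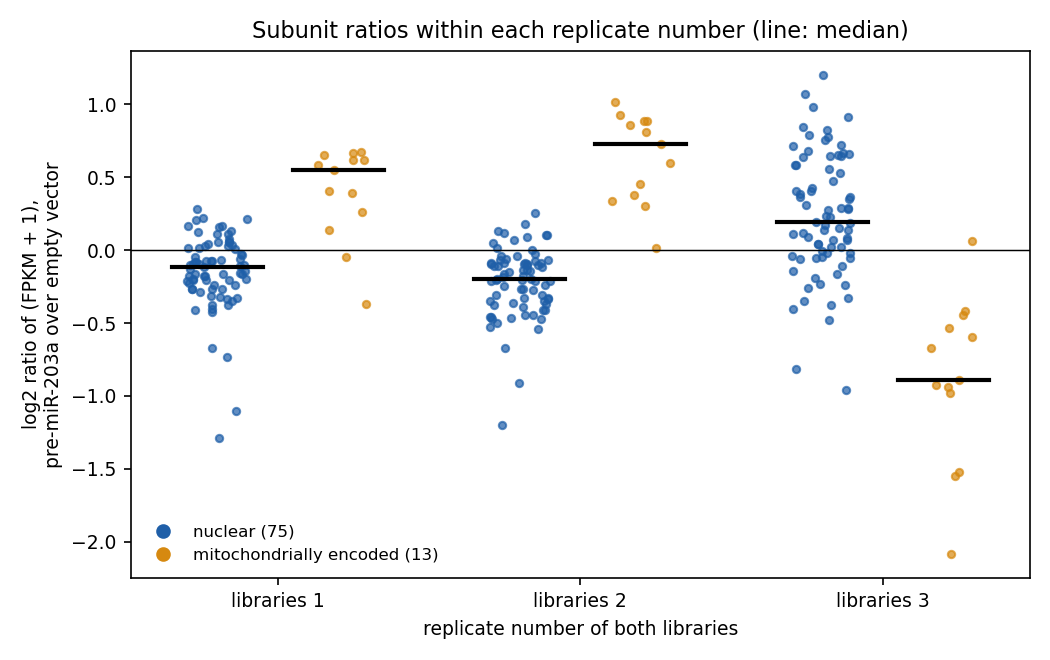
Log2 ratio of FPKM + 1, pre-miR-203a over empty vector, within libraries 1, 2 and 3, for the 75 tested nuclear members (blue) and the 13 mitochondrially encoded members (orange); black lines are medians. Mitochondrial medians are 0.553 and 0.728 in libraries 1 and 2 and −0.889 in libraries 3, and nuclear medians lie on the other side of 0 each time.

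Without both libraries numbered 3, with 2 libraries left in each group, 9 of the 13 mitochondrial members were called higher, where 11.0% of all tested features were. These were MT-ND1, MT-ND2, MT-ND4, MT-ND4L, MT-ND5, MT-CYB, MT-CO1, MT-CO2 and MT-ATP6, with log2 fold changes from 0.42 for MT-ND4L to 0.82 for MT-ND4. MT-ATP6 thereby turned from −0.028 to 0.72. In the same fit 17 of the 75 nuclear members were called lower, where 17.3% of all tested features were, with a median of −0.177. The 17 comprised 7 of complex I, 1 of complex II, 2 of complex III, 2 of complex IV and 5 of complex V. Besides ATP5MC3, ATP5PF and ATP5MD the lowest were NDUFA9 (−0.51) and NDUFB6 (−0.43). NDUFA2, SDHC and UQCR11 turned from above to below 0 (−0.36, −0.34 and −0.41). Without pre-miR-203a library 3 alone, 6 nuclear members were called lower, where 11.9% of all tested features were, and 0 mitochondrial members were called.

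Several measures moved with the libraries numbered 3, and their part in these results was not tested. Mitochondrial reads of all kinds took 8.55% of empty vector library 3 against 4.29% and 4.16% in the other controls, and 5.04% of pre-miR-203a library 3 against 6.27% and 7.04%. Pre-miR-203a library 3 was also the shallowest. Set against the mean of its 2 group mates, its log2 deviations fell with feature length across 11271 features (Spearman's rho −0.32, against −0.053 for empty vector library 3). Features are not independent replicates, so no p is given. The 25% of features that were shortest, up to 2953 bases, deviated by a median of 0.193 and the longest, from 7423 bases, by −0.199. Nuclear members are short, with a median of 2475 against 4936 bases, and 60 of the 75 were above 0 in pre-miR-203a library 3, with a median of 0.283. In empty vector library 3, 24 of the 75 were above 0, with a median of −0.073. The mitochondrial members deviated by a median of −0.388 in pre-miR-203a library 3 and of 1.06 in empty vector library 3.

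Summed over members, the nuclear subunits reached 4654, 4874 and 4507 FPKM with the empty vector and 4263, 4191 and 5414 FPKM with pre-miR-203a. The mitochondrial members summed to 44717, 43163 and 85472 FPKM against 61964, 70092 and 49274 FPKM. Both sums overlapped between the groups. The ratio of the mitochondrial to the nuclear sum was 9.61, 8.86 and 19.0 against 14.5, 16.7 and 9.10, so the libraries numbered 3 reversed the order that the other 4 showed. By complex, the nuclear sums were within a ratio of 0.923 to 1.06 of the control mean, pre-miR-203a over empty vector, and no complex had groups that did not overlap. The ratio of MT-ND5 to MT-ND6, neighbouring genes on opposite strands, was 4.77, 5.69 and 12.1 against 7.84, 8.51 and 27.0, highest in the library numbered 3 of each group.

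Reads of mitochondrial genes can also be placed on copies of them in the nuclear genome. Of 29 listed copies 9 were tested and 0 called, and MTATP6P1 reached a mean of 302 FPKM, MTND4P12 144 FPKM and MTND2P28 75.6 FPKM. Without both libraries numbered 3, MTND4P12, MTCO2P12 and MTCO2P2 were called higher (log2 fold change 0.56 to 0.92) and 1 other lower. MTND4P12 was at 87.3, 87.8 and 273 FPKM against 149, 188 and 79.7 FPKM, with the same library highest as for MT-ND4. Of 11 mitochondrial ribosomal and transfer RNAs outside the members, 0 were called. Of these, 3 lay above 0 and 8 below, with a median log2 fold change of −0.786. The large ribosomal RNA MT-RNR2 was at 970, 788 and 1578 FPKM against 2281, 1552 and 1619 FPKM, with a log2 fold change of 0.75 ± 0.29 (SE, adjusted p = 0.129). It was called higher without control library 3 (1.03, adjusted p = 0.043) and without both libraries numbered 3 (1.10, adjusted p = 0.0207). In the latter fit 11.0% of all tested features were higher and 17.3% lower, and MT-TD was called lower (−1.40, adjusted p = 0.0428). MT-TD was also called lower without pre-miR-203a library 3 alone (−1.55, adjusted p = 0.0310). MT-TM was called lower without control library 2 (−1.68, adjusted p = 0.04999) and without pre-miR-203a library 1 (−1.71, adjusted p = 0.0486).

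Genes that build, feed and express the chain were read from lists compiled from general knowledge. None of the genes called in these 10 lists over 6 libraries was higher. Among 9 electron carriers and linked subunits outside the naming rule 0 were called. Cytochrome c, CYCS, was at 29.9, 28.8 and 24.9 FPKM against 20.6, 22.4 and 18.9 FPKM (−0.42 ± 0.12 SE, adjusted p = 0.0561), and ETFDH, which passes electrons from fat oxidation to ubiquinone, was at 7.76, 7.89 and 6.90 FPKM against 10.2, 10.5 and 9.42 FPKM (0.38 ± 0.11 SE, adjusted p = 0.0545). Groups did not overlap for either. ETFDH was called higher with median-of-ratios scaling (adjusted p = 0.0322), with mitochondrial features left out of the scaling (0.0476), without pre-miR-203a library 3 (0.0320) and without both libraries numbered 3 (0.0265). Without both, 11.0% of all tested features were higher and 17.3% lower. In that fit CYCS (−0.43, adjusted p = 0.0201) and NDUFAB1 of the same list (−0.53, adjusted p = 0.0145) were called lower. NDUFAB1 was also called lower without pre-miR-203a library 3 alone (−0.46, adjusted p = 0.0346).

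Of 16 complex I assembly factors, 2 fell, which is 12.5%, where 9.18% of all tested features did. NUBPL, which delivers iron-sulfur clusters to complex I, was at 3.48, 3.34 and 3.43 FPKM against 1.32, 1.48 and 0.967 FPKM (−0.98 ± 0.13 SE, adjusted p = 0.00448), and the call held without any 1 library. NDUFAF2 was at 25.3, 26.5 and 26.5 FPKM against 15.6, 18.5 and 16.1 FPKM (−0.62 ± 0.11 SE, adjusted p = 0.0104). The median of the list was −0.277, and without both libraries numbered 3 the number called lower was 8, where 17.3% of all tested features were. Of 24 complex IV assembly factors 2 fell: CMC2 (−0.49, adjusted p = 0.0187) and COX10 (−0.49, adjusted p = 0.0457), which makes the heme precursor of complex IV. These 2 are 8.33% of that list, below the 9.18% of all tested features. Leaving out library 1 or 2 of either group ended the call of CMC2 (adjusted p = 0.0534 to 0.0967), and leaving out any library but pre-miR-203a library 3 that of COX10 (0.0818 to 0.157). Of 10 factors for complexes II and III and 3 for complex V, 0 were called. TTC19, a complex III factor, was called higher without pre-miR-203a library 3 (0.48, adjusted p = 0.0434) and without both libraries numbered 3 (0.39, adjusted p = 0.0281). In the latter fit UQCC2 (−0.42, adjusted p = 0.0257), UQCC3 (−0.54, adjusted p = 0.0170) and SDHAF1 (−0.38, adjusted p = 0.0439) of the same list were called lower. The median of that list was then −0.232. ATPAF1 for complex V was also called lower there (−0.31, adjusted p = 0.0429). Of all tested features 11.0% were higher and 17.3% lower in that fit.

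Of 28 genes for replication, transcription and RNA processing of mitochondrial DNA, 3 fell and 0 rose. The 3 are 10.7% of the list, beside 9.18% of all tested features. TFAM, which packages mitochondrial DNA and starts its transcription, was at 29.7, 30.7 and 28.2 FPKM against 17.2, 21.5 and 13.6 FPKM. Every pre-miR-203a library lay below every control, and the log2 fold change was −0.75 ± 0.16 (SE, adjusted p = 0.0219). MTERF3, a regulator of mitochondrial transcription (−0.49, adjusted p = 0.0188), and TRMT10C, a part of mitochondrial RNase P (−0.45, adjusted p = 0.0324), also fell. The median of the list was −0.205. With the replicate block FASTKD3, a mitochondrial RNA-binding protein, was also called lower (−0.60, adjusted p = 0.0228, against 0.0639 without the block). The call of TFAM was lost on leaving out any 1 control or library 1 of the pre-miR-203a group (adjusted p = 0.0559 to 0.0829), with a log2 fold change between −0.72 and −0.78 in these 4 fits. The same 4 libraries ended the call of TRMT10C (0.0835 to 0.127), and they and pre-miR-203a library 2 that of MTERF3 (0.0555 to 0.0988).

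Of 77 mitochondrial ribosomal proteins 73 were tested, and 3 fell: MRPL19 (−0.85, adjusted p = 0.0107), MRPL39 (−0.65, adjusted p = 0.00763) and MRPL1 (−0.52, adjusted p = 0.034). These 3 are 4.11% of those tested, below the 9.18% of all tested features that were lower. With the replicate block MRPL1 was no longer called (adjusted p = 0.062). The list leaned below 0 in 67 of the 73, with a median of −0.197, beside 5830 of all 11271 tested features. Its median log2 ratio was −0.310 within libraries 1 and −0.331 within libraries 2. Within libraries 3 it was 0.0097, with 38 of the 73 above 0. Without both libraries numbered 3 the number called lower was 38, where 17.3% of all tested features were, with a median of −0.324. Of 17 citric acid cycle genes, 1 fell, fumarase FH (79.2, 84.1 and 76.8 against 57.1, 62.6 and 54.8 FPKM, −0.45 ± 0.11 SE, adjusted p = 0.0273). Of 13 genes of import and mitochondrial mass 1 fell, TOMM40, the pore of the outer membrane (−0.53, adjusted p = 0.0407, and 0.0545 with the replicate block). Of 11 tested transcriptional regulators of respiratory genes 1 fell, GABPB1, the partner of GABPA (−0.55, adjusted p = 0.0479). The share called lower was 5.88% of the citric acid cycle genes, 7.69% of the import and mass genes and 9.09% of the regulators. Each lay below 9.18%. Leaving out any 1 control or pre-miR-203a library 1 ended the calls of MRPL1 (adjusted p = 0.0957 to 0.11), FH (0.0632 to 0.121) and GABPB1 (0.0933 to 0.17). The same libraries and pre-miR-203a library 2 ended that of TOMM40 (0.057 to 0.148).

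**Figure D5:**
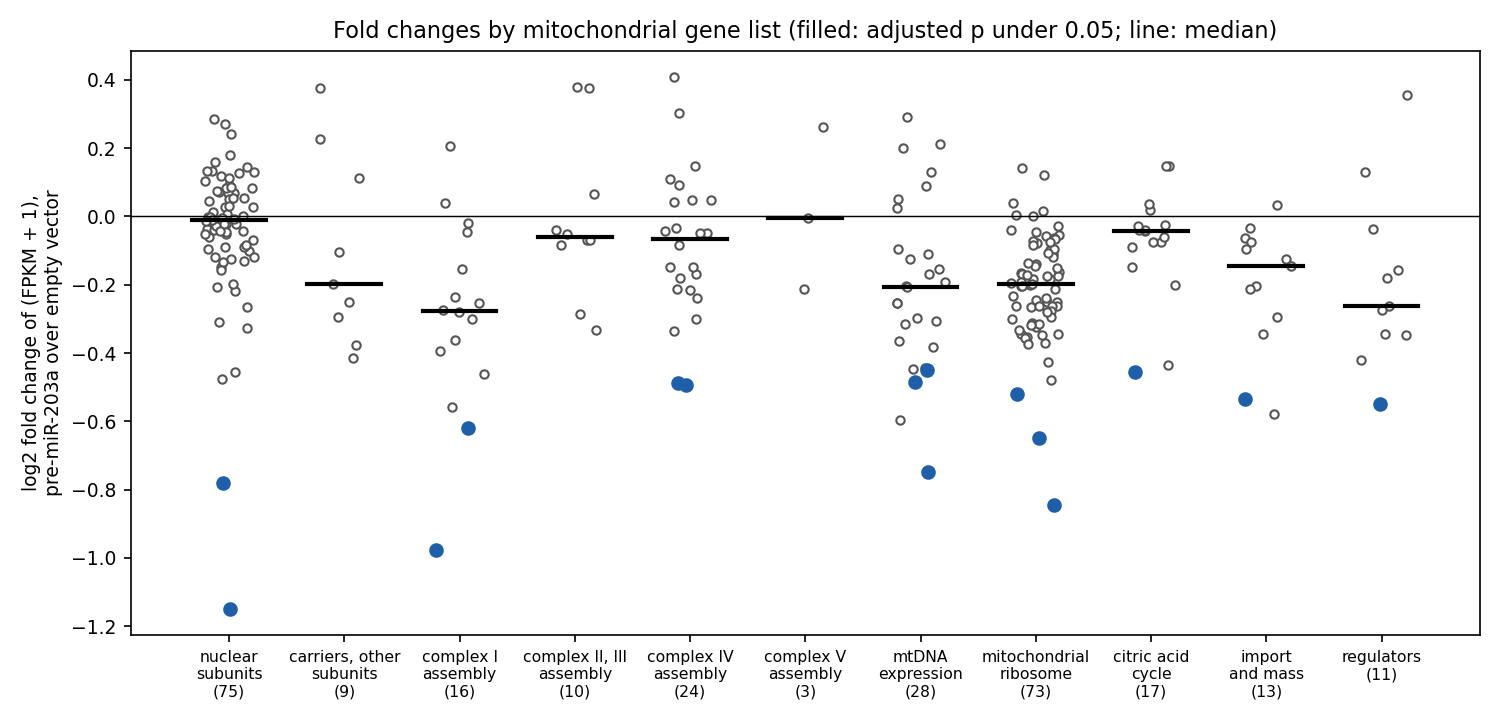
Log2 fold change of log2(FPKM + 1), pre-miR-203a over empty vector, of each tested gene in the nuclear subunits and in 10 lists of other mitochondrial genes, with the number tested in brackets; filled points are called and lines are medians. All filled points are below 0, and the median is −0.012 for the nuclear subunits, −0.277 for complex I assembly, −0.205 for expression of mitochondrial DNA and −0.197 for the mitochondrial ribosome.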

How the data were processed

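RNA-seq values of 6 libraries were analysed, grouped by the sample titles. The submitters' processing notes name hg38 as the build, featureCounts 2.0.0, and, for the authors' own comparison or quality control, DESeq2 1.28.1, FastQC 0.11.5 and MultiQC 1.6. For the aligner, annotation release and strand setting, nothing is given in the sources used here. FPKM values of 18999 features were deposited by the authors. A second deposited table held TPM values, a baseMean signal, log2 fold changes (control over pre-miR-203a, turned here) and p-values with adjusted p-values.

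The model was limma's (version 3.58.1, R 4.3.3) on log2(FPKM + 1), with group as its term, robust variances and a mean trend. Features needed 1 FPKM or more in 3 libraries. P-values were adjusted by Benjamini-Hochberg over all 11271, and under 0.05 was called. This scale understates changes of low features. Whole reads were recovered from FPKM and baseMean for 100% of values within 0.01, and gave the depths and a limma-voom fit. Reads of replicates differed beyond sampling noise (chi-square per feature from 11.1 to 88.4). Tests were tried on simulated data. Seed matches used GENCODE 29, with all 79 nuclear members matched by identifier.

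Libraries with the same number deviated together (correlations 0.433, 0.270 and 0.322, all over 0.1, against −0.417 to 0.221 otherwise), so the numbers were taken as pairs from the data, and the fit with the replicate block is given where it changes a call. Members and lists were chosen with earlier results of these data known. The named genes are every mitochondrial member, every called nuclear member, per complex the most abundant and, with none called, the 2 of smallest p, isoforms and copies, up to 3 called per list, and MIR203A, 47 in all. Another 78, mainly the other members, were named or set beside them after their values were seen. Other tools were matplotlib 3.10.9, scipy 1.17.1, pandas 2.3.3, numpy 2.4.6 and Python 3.11.15.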

Additional observations from a re-analysis of the deposited data

How the results depend on the processing

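Median-of-ratios scaling, scaling without mitochondrial features, TPM, a pseudocount of 0.1, no filter, limma-voom and the replicate block left 2 or 3 nuclear members called lower and 0 mitochondrial members called. The replicate block called 848 features higher and 1122 lower and changed no member's call. TPM called 434 features higher and moved the median of all features to −0.107, so changes on that scale are relative to it. Leaving out 1 library gave 323 to 919 features higher, 422 to 1338 lower and 1 to 6 nuclear members lower, and medians of −0.105 to 0.108 for nuclear complex III. Without both libraries numbered 3, chosen after seeing the data, 1239 features were higher, 1951 lower, 17 nuclear members lower and 9 mitochondrial members higher. Medians then were −0.177 for nuclear members, −0.178 for nuclear complex I, 0.656 for mitochondrial members, 0.503 for those of complex IV and 0.271 for those of complex V. UQCR11 (−0.41), NDUFA2 (−0.36), SDHC (−0.34) and MT-ATP6 (0.72) reversed there. The cause was not tested. COX10 and GABPB1 each lost their call in 8 of 14 settings, with adjusted p up to 0.157 and 0.17. The precision is set by 3 libraries a group, 1 of them shallow, and by wide intervals of the mitochondrial members.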
